A study of Rattus norvegicus with 12 samples.

Results

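H9C2 cells carrying a LITAF-overexpressing vector were compared with cells carrying an empty vector, with both sides taken through hypoxia and reoxygenation (H/R). H9C2 is a long-used myoblast line from embryonic rat heart, grown here in DMEM with fetal bovine serum. The comparison used 8 of the 12 RNA-sequencing libraries of the study, 4 a side. They were chosen by their labels alone, and the 4 libraries of untransduced cells under normal oxygen stayed out of the fit. On the control side the cells were wild type, received the empty lentiviral vector and spent 8 h at 1% oxygen followed by 2 h of reoxygenation. On the other side the genotype was LITAF overexpression from a lentiviral vector, given before the same 8 h and 2 h. By the labels the groups therefore share a lentiviral vector and H/R, and differ in LITAF. Any other difference between the cells that received each vector cannot be told apart from LITAF. The labels do not say which promoter drives LITAF, of which species the inserted LITAF is, or how long the cells carried the vector before hypoxia. They call the replicates biological and place them in 1 batch, with no word on separate cultures, so the p-values below measure the spread between these libraries, which may be technical.

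LITAF is a small protein bound to the membranes of late endosomes and lysosomes through a zinc-binding domain. Short motifs near its N-terminus bind the WW domains of NEDD4-family ubiquitin ligases and the ESCRT subunit TSG101, which sort membrane proteins for degradation. It was named for its induction by lipopolysaccharide and for a proposed role in switching on TNF, and dominant mutations in the gene cause a demyelinating neuropathy of Charcot-Marie-Tooth type. In H/R, a culture model of ischaemia and reperfusion of the heart, returning oxygen brings a burst of oxidants, and immediate early, inflammatory and stress genes respond within hours.

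Litaf itself (gene ENSRNOG00000002520) stood at 559, 629.9, 584 and 609 CPM (a TMM-scaled count per M reads) in empty-vector libraries 1 to 4. In LITAF libraries 1 to 4 it stood at 2744, 2047, 2582 and 2161 CPM. Each LITAF library lay above every empty-vector library, with libraries 1 and 3 the higher pair. The difference was log2 2.00 ± 0.10 (SE), a 4.003-fold rise, edgeR adjusted p = 3.07e-06. Whether these reads came from the vector or from the cells' own gene cannot be told apart in gene counts. The myogenic markers were mixed, with Myod1, the master regulator of skeletal myoblasts, at 77.1 to 115 CPM and the muscle cadherin gene Cdh15 at 370 to 520 CPM in the 8 libraries, Ncam1 at 278 to 337 CPM and Des at 12.6 to 17.5 CPM. Myf5 had at most 1 read, Chrna1 at most 15 and Cdh2 at most 25 reads in a library. Of the cardiomyocyte markers, the transcription factor gene Nkx2-5 was at 13.6 to 20.6 CPM and Tnnt2 at 43.7 to 189 CPM, Myh6 had 3 to 18 reads, and Myh7, Tnni3, Ryr2, Nppa, Nppb and Myl2 reached at most 5 reads in any library. The label cardiomyoblast thus met Myod1, Nkx2-5 and Tnnt2 together, with 6 of the 9 cardiomyocyte markers absent or nearly so.

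Endothelial markers and lymphocyte markers were at or near 0, as were most macrophage markers, and fibroblast markers were mixed. The 6 endothelial markers in the table summed to 0.0581 to 0.869 CPM with the empty vector and 0.223 to 0.58 CPM with LITAF. The 6 macrophage markers summed to 9.001 to 10.9 and 11.1 to 12.1 CPM, most of it Cd14, with Csf1r at up to 1.34 CPM, and the pan-leukocyte gene Ptprc had at most 3 reads in a library. The 4 T and B cell markers summed to 0.813 to 1.03 and 0.985 to 1.29 CPM. Of the fibroblast markers, Col1a1 and Thy1 were abundant, Postn was at 16.4 to 77.98 CPM with overlapping groups, Dcn was at 0 in all 8 libraries, and Lum, Fap and Pdgfra had at most 7 reads.

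To show the regulatory sequence in front of the genes that moved most clearly, the promoters of 4 leading members of the immediate early and NF-kB lists are printed. They run from 250 bases before to 50 bases after the start site, 5′ to 3′ along the gene, from RefSeq, rat build GRCr8. From each list the promoter was taken of the member with the smallest p-value among those matched to a promoter and not on chromosome 18. Capitals mark matches on either strand to the CArG box (bound by serum response factor, SRF), the AP-1 site TGACTCA, the CRE TGACGTCA and the NF-kB site.
Egr2 (chr20:21054392-21054691, minus strand): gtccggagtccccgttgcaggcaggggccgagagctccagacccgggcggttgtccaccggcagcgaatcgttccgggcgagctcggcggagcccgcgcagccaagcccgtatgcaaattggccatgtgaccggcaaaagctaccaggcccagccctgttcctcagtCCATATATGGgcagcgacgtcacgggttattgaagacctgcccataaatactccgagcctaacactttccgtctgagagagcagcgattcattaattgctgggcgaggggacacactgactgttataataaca
Junb (chr19:40080876-40081175, plus strand): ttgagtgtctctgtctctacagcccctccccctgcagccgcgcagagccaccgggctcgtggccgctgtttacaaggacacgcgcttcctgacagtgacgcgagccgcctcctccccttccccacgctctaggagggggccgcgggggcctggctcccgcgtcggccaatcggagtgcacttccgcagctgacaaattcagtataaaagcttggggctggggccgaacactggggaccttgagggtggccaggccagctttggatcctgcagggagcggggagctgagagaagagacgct
Btg2 (chr13:48087641-48087940, minus strand): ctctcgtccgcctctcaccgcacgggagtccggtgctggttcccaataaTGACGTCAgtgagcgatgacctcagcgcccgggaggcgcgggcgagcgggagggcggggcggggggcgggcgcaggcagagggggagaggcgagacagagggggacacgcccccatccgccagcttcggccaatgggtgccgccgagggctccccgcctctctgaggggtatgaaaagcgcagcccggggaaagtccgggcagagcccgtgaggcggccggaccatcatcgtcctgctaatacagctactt
Tnfaip3 (chr1:15543930-15544229, minus strand): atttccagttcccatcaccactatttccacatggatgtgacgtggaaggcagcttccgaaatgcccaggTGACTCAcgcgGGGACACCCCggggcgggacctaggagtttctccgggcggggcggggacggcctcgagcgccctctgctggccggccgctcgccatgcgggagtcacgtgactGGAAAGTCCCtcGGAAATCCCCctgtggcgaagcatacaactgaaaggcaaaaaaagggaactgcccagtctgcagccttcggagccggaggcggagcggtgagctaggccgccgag

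The Egr2 promoter held a CArG box that begins 83 bases before the start. The Btg2 promoter held a CRE that begins 201 bases before it. In front of Tnfaip3 stood 3 NF-kB sites, beginning 170, 67 and 55 bases upstream, and an AP-1 site beginning 181 bases upstream. None of these 4 motifs was in the Junb window. Of the 9321 tested genes with a promoter in the table, 1.37% had a CArG box, 3.24% an AP-1 site, 3.35% a CRE and 4.67% an NF-kB site. Among the 96 genes with a promoter that rose at least 2-fold, 7 had a CArG box (7.29%), 9 an AP-1 site (9.38%), 2 a CRE (2.08%) and 11 an NF-kB site (11.5%). Among all 613 risen genes with a promoter the shares were 2.12%, 4.89%, 3.92% and 6.85%, in the same order. Among all 264 fallen genes with a promoter they were 3.41%, 3.03%, 4.17% and 3.03%. A match is a description of letters, not a measured binding site.

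Across all genes, 11292 were tested and 1108 were called, 9.81% of them, at a Benjamini-Hochberg adjusted p under 0.05. Of these, 783 rose (6.93% of the genes tested) and 325 fell (2.88%). By at least 2-fold, 119 rose and 28 fell. The size of most changes was modest, with a median of 0.47 on the log2 scale, regardless of sign, over the called genes. The median log2 fold change of all genes was -0.01. TMM scaling put 70.7% of the calls on the higher side, and library totals alone put 51.1% there (598 rises and 572 falls), where the median of all genes was -0.06. For 2147 genes (19%) all CPM values of 1 group lay above all of the other, among them 1080 of the 1108 called. No called gene changed sign in any of the 17 alternative fits that tested it. The number of calls depended on the libraries used, at 468, 439, 446 and 880 without empty-vector libraries 1 to 4 in turn, and 2557, 1249, 570 and 443 without LITAF libraries 1 to 4.

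**Figure D1:**
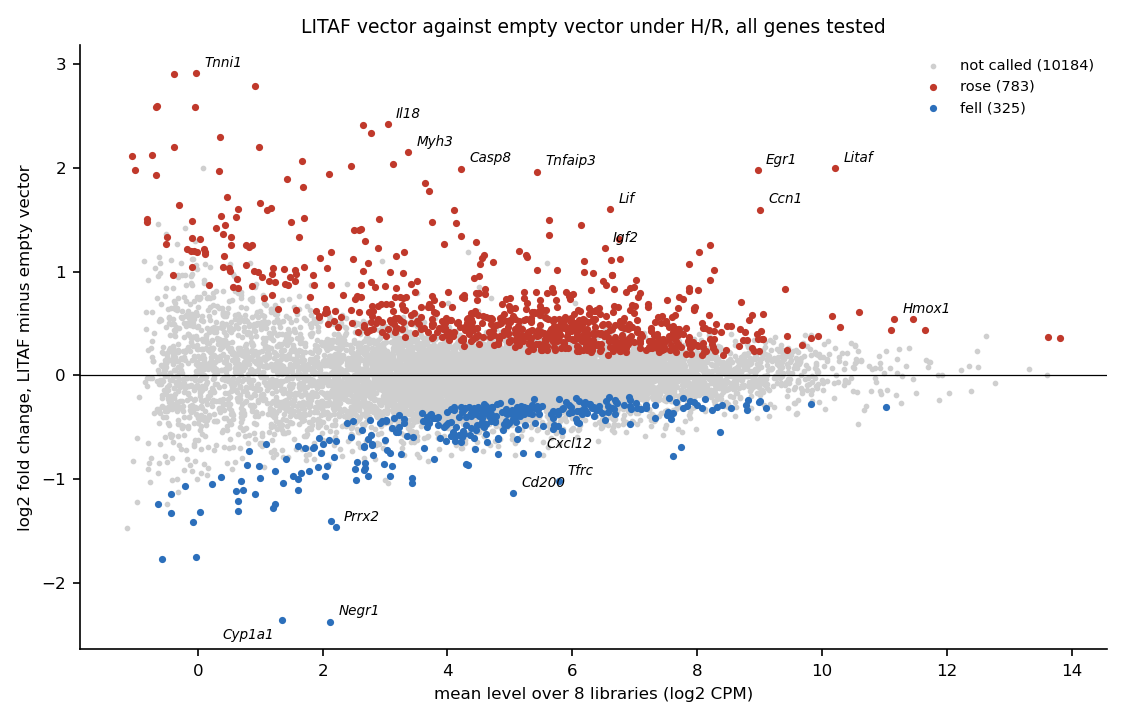
Log2 fold change of LITAF over empty vector (vertical axis) against the mean level over the 8 libraries (horizontal axis, log2 CPM) for all 11292 genes tested. Red points are the 783 genes that rose and blue points the 325 that fell. Litaf and Egr1 combine a high level with a rise near 4-fold, and the falls are fewer and mostly small.

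**Figure D2:**
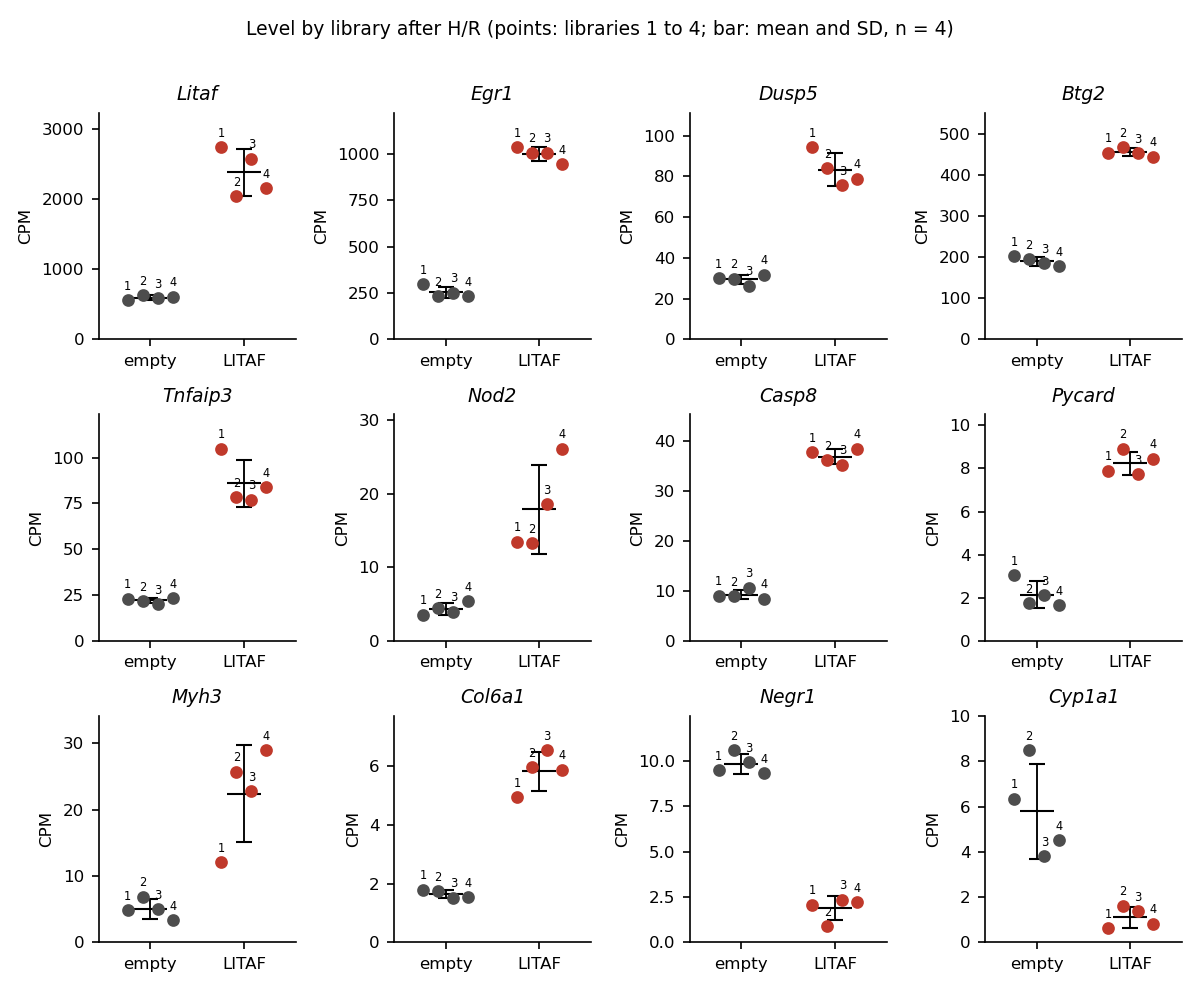
CPM in each library (vertical axes, from 0) for 12 genes, in empty-vector and LITAF libraries numbered 1 to 4, with the mean and SD (n = 4). The groups do not overlap in any of the 12 panels, and Nod2, Myh3 and Litaf are more spread among the LITAF libraries than Egr1, Btg2 or Casp8.

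The libraries with LITAF differed among themselves more than those without. The median SD of log2 CPM over genes was 0.175 in the LITAF group and 0.106 in the empty-vector group, and 72.3% of genes were more spread with LITAF. The leading axis of deviations from the group means held 54.8% of their variance. LITAF library 1 scored -0.68 on it, library 3 -0.20, library 4 0.24 and library 2 0.64, against -0.13 to 0.12 for the empty-vector libraries. Among the LITAF libraries, but not the empty-vector ones, the summed level of cytosolic ribosomal protein genes followed the order of these scores, at 34496, 36615, 35697 and 32469.6 CPM in empty-vector libraries 1 to 4 and 32294, 44525, 39369.9 and 42043 CPM in LITAF libraries 1 to 4. Zinc finger genes ran the other way among the LITAF libraries, and their sums are given below. Depth was not ordered along this axis, with 17.3, 18.4, 18.5 and 17.6 M reads in LITAF libraries 1 to 4 and 16.98 to 18.2 M in the empty-vector libraries. Litaf itself was ordered along it among the LITAF libraries, highest in library 1, then 3, 4 and 2, by the values given above. Whether the Litaf level is tied to this axis was not tested. The part of this axis in the results below was not tested, and for many lists below the counts of called members are also given with each library left out. Counts of genes that fell, none included, are of the 8-library fit unless a library is said to be left out, and without LITAF library 1 several lists with no falls had some.

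**Figure D3:**
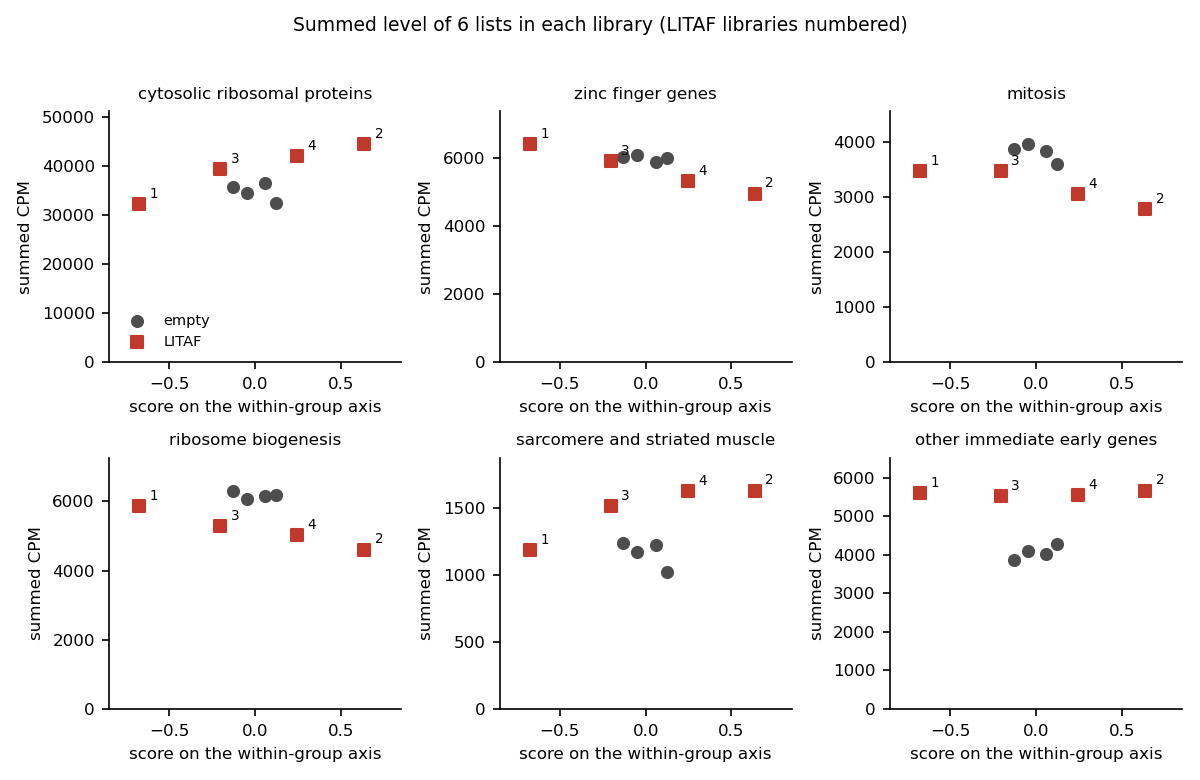
Summed CPM of 6 gene lists (vertical axes, from 0) against the score of each library on the leading axis of within-group deviation. Cytosolic ribosomal proteins climb and zinc finger, mitosis and ribosome biogenesis genes descend from LITAF library 1 to library 2, while the other immediate early genes stand at nearly 1 level in all 4 LITAF libraries, above the empty-vector libraries.

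Immediate early genes, which are transcribed within minutes of a growth or stress signal and need no new protein, rose widely. In the list of the EGR family, its NAB corepressors and Arc, 5 of 6 tested members rose and none fell, with a median log2 fold change of 1.41. Egr1, a zinc finger factor of growth and injury responses, stood at 298, 232, 252 and 232 CPM with the empty vector and 1037, 1006, 1008 and 946 CPM with LITAF. All 4 LITAF libraries sat close together, far above the highest empty-vector library. The rise was 3.94-fold (log2 1.98 ± 0.09, edgeR adjusted p = 2.74e-06). Egr2, whose promoter with the CArG box is shown above, went from 13.6, 10.7, 11.4 and 10.7 to 27.9, 29.2, 28.4 and 32.6 CPM. Its groups did not overlap either (log2 1.35 ± 0.10, edgeR adjusted p = 4.20e-05). Egr3, a related family member, had 0.706 to 1.08 CPM with the empty vector and 3.28 to 4.52 CPM with LITAF (log2 2.20 ± 0.19). Arc, an immediate early gene known from neurons and a textbook SRF target, rose 2.78-fold from between 7.43 and 8.24 CPM to between 19.3 and 24.9 CPM. Nab2, a corepressor induced by EGR proteins as a brake, rose by less, log2 0.36 ± 0.08, and lost its call without empty-vector libraries 1, 2 and 3 or LITAF library 4 (edgeR adjusted p up to 0.0853), and with all 12 libraries in the fit (adjusted p up to 0.0582). Nab1 was at log2 0.08 and did not pass.

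The AP-1 list, subunits of the dimeric factor that binds TGACTCA, had 7 of 10 members up and none down, with a median of 0.47. Fos stood at 48.4, 41.4, 40.6 and 41.02 CPM with the empty vector and at 131, 106, 126 and 104 CPM with LITAF, and the lowest LITAF library held more than 2 times the level of the highest empty-vector library. Junb went from between 151 and 190.4 CPM to between 357 and 433 CPM (log2 1.19 ± 0.09) and Fosb from between 43.996 and 52.9 CPM to between 94.9 and 114 CPM (log2 1.10 ± 0.09). The changes in Jun, Fosl1, Maff and Atf3 were smaller, at log2 0.45, 0.57, 0.50 and 0.41, all called. Jund, the constitutively expressed member, was at log2 0.00 with overlapping groups, and Fosl2 at log2 0.24 did not pass. Over the fits that left out 1 library, 7 to 9 AP-1 members rose.

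Among the other immediate early genes, 15 of 28 rose and none fell (median 0.39), and 11 to 16 rose with 1 library left out. The list mixes antiproliferative, RNA-decay and signalling genes, and members of each kind rose. Btg2, an antiproliferative cofactor of mRNA deadenylation with a CRE in the promoter shown above, stood at 203, 195, 185 and 177 CPM against 454, 467, 453 and 445 CPM. The spread within each group was small beside the 2.39-fold gap (log2 1.26 ± 0.06, edgeR adjusted p = 3.07e-06). Zfp36, which codes for tristetraprolin and speeds the decay of mRNAs with AU-rich elements, went from between 69.6 and 79.5 CPM to between 153 and 174 CPM (2.18-fold). Ier2, Ier3, Phlda1 and Plk3 rose 2.02-fold, 1.89-fold, 1.76-fold and 1.71-fold, with no overlap between groups. Of the NR4A orphan nuclear receptors, Nr4a3 rose (log2 0.80 ± 0.12), and Nr4a1 was also called higher. Ptgs2, the inducible cyclooxygenase, scattered within both groups, at 17.4, 40.02, 50.2 and 40.2 CPM against 70.5, 36.02, 40.7 and 29.6 CPM, and did not pass. Its highest value was in LITAF library 1 and its lowest in empty-vector library 1.

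Feedback inhibitors of the ERK kinase cascade, which are transcribed in response to ERK activity and shut it down, rose in 9 of 21 tested cases with none down (median 0.35). Over the fits with a library left out, 7 to 12 rose. Dusp5, a nuclear phosphatase that acts on ERK, went from 29.9, 29.7, 26.2 and 31.7 CPM to 94.4, 84.1, 75.7 and 78.9 CPM. LITAF library 1 was highest and all 4 stood at more than 2 times the empty-vector level (2.83-fold, edgeR adjusted p = 1.17e-05). Dusp6, its cytoplasmic counterpart, rose 2.23-fold from between 23.1 and 27.997 CPM to between 52.6 and 61.8 CPM. The pseudokinase gene Trib1 rose 1.98-fold, the EGFR inhibitor gene Errfi1 1.66-fold and the receptor kinase inhibitor gene Spry2 1.44-fold. For Spry2 the LITAF values spanned 35.9 to 37.6 CPM and the empty-vector values 24.6 to 26.5 CPM, a small difference with tight groups (edgeR adjusted p = 0.0013). Dusp4 (log2 0.47, under 2 CPM in every library) and Spred1 (log2 0.13) did not pass, and their groups overlapped.

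**Figure D4:**
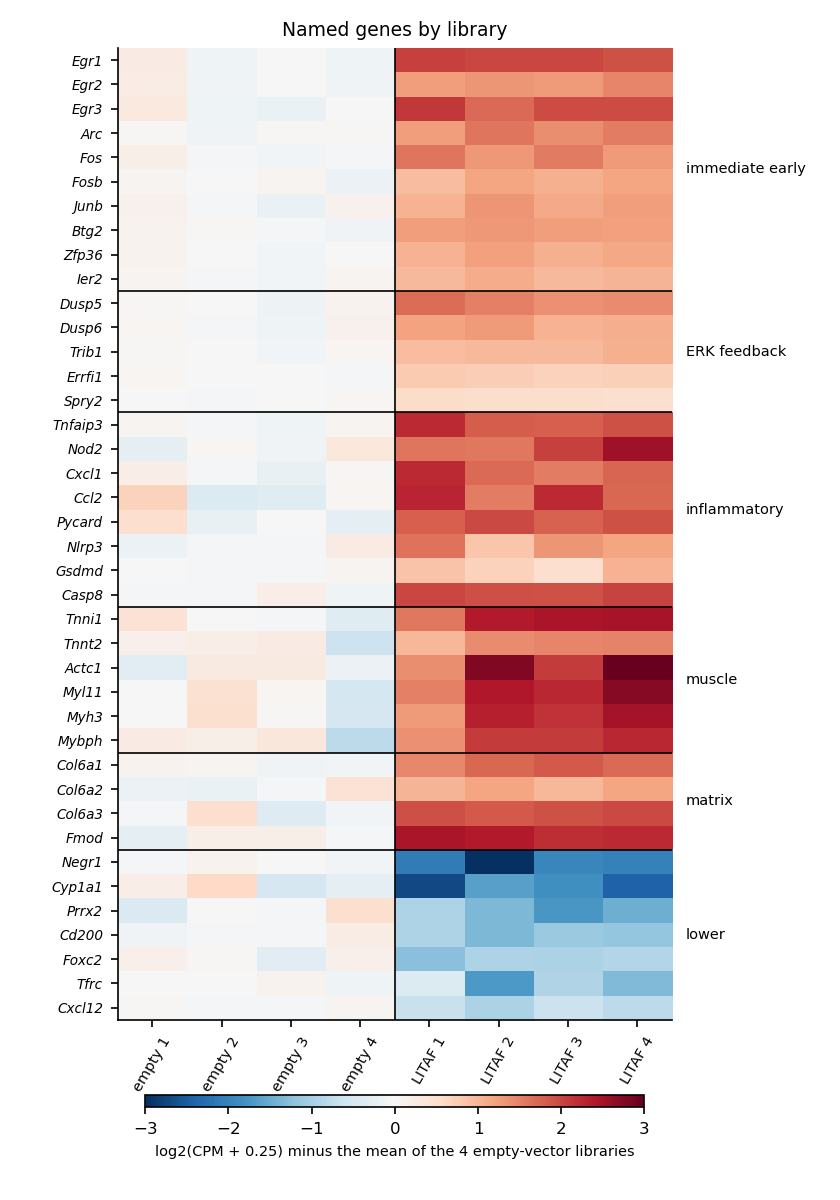
Log2(CPM + 0.25) of 40 named genes in each of the 8 libraries, minus the mean of the 4 empty-vector libraries (colour scale from -3 to 3, columns are libraries). Immediate early and ERK feedback genes are red to a like degree in all 4 LITAF libraries, muscle genes are palest in LITAF library 1, and Tfrc is palest in LITAF library 1 and darkest in library 2.

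Growth factor ligands moved in part. Of 24 tested, 4 rose and 1 fell, against 6.93% and 2.88% of all genes, and the falls numbered 0, 0, 0 and 1 without empty-vector libraries 1 to 4 in turn, and 3, 1, 0 and 0 without LITAF libraries 1 to 4. Pdgfb, the B chain of platelet-derived growth factor, went from between 3.75 and 4.93 CPM to between 6.78 and 10.04 CPM (2.01-fold, edgeR adjusted p = 0.00294). Edn1, the vasoconstrictor endothelin, went from between 8.48 and 10.6 CPM to between 14.5 and 15.5 CPM (log2 0.66 ± 0.10). Its receptor gene Ednra, named after its value was seen, rose 2.28-fold, from 4.99, 7.43, 7.004 and 6.57 to 13.2, 15.6, 14.1 and 16.4 CPM. Hbegf, a ligand of the EGF receptor, rose 1.37-fold, and its call was lost with all 12 libraries in the fit (adjusted p up to 0.0501). Vegfa, abundant in both groups at 885 to 949 and 829.6 to 982 CPM, did not differ beyond its spread (log2 -0.01). YAP/TEAD targets, which report on cell shape and tension, rose in 6 of 23 cases with none down (median 0.13), with a count of 4, 4, 4 and 7 without empty-vector libraries 1 to 4 in turn, and 8, 6, 4 and 4 without LITAF libraries 1 to 4. The matricellular gene Ccn1 led them, at 299, 287, 304 and 299.5 CPM against 777, 1004, 899.99 and 922 CPM, lowest among the LITAF libraries in library 1 (log2 1.60 ± 0.08, edgeR adjusted p = 3.07e-06). Ankrd1, a cardiac repeat protein and a standard YAP target, was at log2 0.15 and did not pass.

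The insulin-like growth factor pathway rose in 6 of 15 tested members with none down (median 0.40), and at least 6 rose in every fit with a library left out. Igf2, the fetal growth factor made by myoblasts, stood at 56.2, 59.9, 64.6 and 59.1 CPM with the empty vector and 145, 137, 141 and 137 CPM with LITAF. Both sets were tight, and the 2.34-fold rise (log2 1.22 ± 0.06) had an edgeR adjusted p = 3.74e-06. Of the secreted binding proteins, Igfbp4 rose 2.0997-fold (between 14.4 and 17.5 CPM to between 30.99 and 35.1 CPM) and Igfbp5 2.22-fold (between 5.71 and 6.39 CPM to between 10.97 and 17.97 CPM). The receptor substrate gene Irs2 rose 1.69-fold, and Irs1 and the clearance receptor gene Igf2r were also called.

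Of 22 NF-kB subunits and feedback inhibitors, 4 rose and none fell (median 0.12), and all 4 were inhibitors or modulators. The count was 2, 2, 2 and 3 without empty-vector libraries 1 to 4 in turn, and 5, 4, 2 and 3 without LITAF libraries 1 to 4. Tnfaip3, which codes for the ubiquitin-editing inhibitor A20 and has 3 NF-kB sites in the promoter shown above, stood at 23.1, 21.5, 20.1 and 23.4 CPM against 105, 78.5, 76.996 and 83.7 CPM. LITAF library 1 was highest, and all 4 were at least 3 times every empty-vector value. The rise was log2 1.97 ± 0.11 (edgeR adjusted p = 5.70e-06). Tnip2, a partner of A20, rose 1.53-fold. The subunit genes Nfkb1 and Rela were at log2 0.08 and -0.11 and did not pass. The other 2 rises were less firm: Nfkbie lost its call without empty-vector libraries 1, 2 and 3 or LITAF library 3 (edgeR adjusted p up to 0.0676). Nfkbiz, at 49.04, 18.6, 29.8 and 24.8 CPM with LITAF against 14.6 to 16.7 CPM, lost it without empty-vector libraries 1, 2, 3 and 4 or LITAF libraries 3 and 4 (edgeR adjusted p up to 0.119), and with RLE scaling, with library totals alone and with no low-count filter (adjusted p up to 0.0964).

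Pattern recognition receptors and their adaptors, a list put together after these values were seen, had 6 of 14 members up and none down. Nod2, the cytosolic sensor of bacterial muramyl dipeptide, stood at 3.52, 4.47, 3.96 and 5.43 CPM with the empty vector and 13.5, 13.2, 18.6 and 26.1 CPM with LITAF. Its highest LITAF value, in library 4, was about 2 times the lowest, so the 4.11-fold rise carries a wide error (log2 2.04 ± 0.24, edgeR adjusted p = 0.00133). Traf6, an adaptor ubiquitin ligase downstream of Toll-like receptors, rose 1.73-fold, and Wdfy1, an endosomal adaptor of Toll-like receptor signalling, 1.83-fold. Myd88, the shared adaptor of Toll-like and IL-1 receptors, was at 26.3, 23.5, 23.7 and 21.5 CPM against 46.02, 52.6, 82.5 and 37.8 CPM, highest in LITAF library 3 (log2 1.20 ± 0.21). Zc3h12a, an endonuclease that degrades inflammatory mRNAs, rose 2.14-fold. In a separate list of IL-1 family receptors, 1 of 9 tested members rose, Myd88, and 1 fell. Each is 11.1% of that list, against 6.93% and 2.88% of all genes. The fall was Il1rl1, the receptor for IL-33, from between 22.6 and 23.9 CPM to between 11.2 and 17.7 CPM. Its call was lost without empty-vector libraries 1, 2 and 3 or LITAF library 4 (edgeR adjusted p up to 0.0614).

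Many chemokines and cytokines were low in these cells, though Lif and Cxcl12 were not. Of 16 tested members of the list 7 rose and 1 fell (median 0.22). Cxcl1, a neutrophil chemokine, stood at 7.59, 6.39, 5.54 and 6.74 CPM against 31.6, 21.7, 19.5 and 22.5 CPM, log2 1.86 ± 0.16 (edgeR adjusted p = 1.17e-04). Ccl2 and Ccl7, monocyte chemokines from 1 gene cluster, reached 4.68 to 8.12 and 4.17 to 6.898 CPM with LITAF from 1.05 to 2.49 and 1.41 to 2.63 CPM. Lif, an IL-6 family cytokine, was at 162 to 186 CPM with LITAF against 50.6 to 59.1 CPM (3.04-fold). The direction was opposite for Cxcl12, a homeostatic chemokine of stem and progenitor cells, at 58.6, 54.3, 55.1 and 60.3 CPM against 36.1, 29.4, 36.3 and 32.98 CPM. Every LITAF value was under the lowest empty-vector value by more than 15 CPM (log2 -0.76 ± 0.08, edgeR adjusted p = 6.57e-04). Il6, Icam1 and Vcam1, common NF-kB targets, did not pass, at log2 0.30, -0.06 and -0.09. Icam1 was highest in empty-vector library 4. Macrophage markers summed to slightly more with LITAF, as given above, and apart from Cd14 and Csf1r none reached 10 reads in a library. Their part in these results was not tested.

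In the inflammasome and pyroptosis list, 5 of 10 tested members rose, none fell, and the count was 5 in each of the 17 alternative fits. The 5 were the adaptor gene Pycard, the sensor gene Nlrp3, its activator gene Txnip, the pore gene Gsdmd and the substrate gene Il18. Pycard, whose product ASC links sensors to caspase-1, stood at 3.04, 1.74, 2.12 and 1.66 CPM against 7.88, 8.91, 7.73 and 8.45 CPM (log2 1.94 ± 0.18, edgeR adjusted p = 1.64e-04). Nlrp3 was at 12.6, 13.8, 13.7 and 16.7 CPM against 44.2, 25.6, 35.8 and 32.6 CPM, with LITAF library 1 highest (2.43-fold). Gsdmd was at 102, 101, 100.1 and 109 CPM against 188, 167, 145 and 214 CPM (1.73-fold). Txnip rose 2.02-fold. For Il18 the empty-vector libraries scattered, at 7.32, 1.801, 3.53 and 2.29 CPM, and the LITAF libraries did not, at 22.3, 19.04, 19.8 and 19.6 CPM (log2 2.42 ± 0.34, edgeR adjusted p = 0.00306).

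Of 17 death receptor genes, Casp8 alone was called, a share (5.88%) near the 6.93% of all genes that rose. Casp8, the initiator caspase that also cleaves gasdermins and RIPK1, stood at 9.001, 8.94, 10.6 and 8.399 CPM with the empty vector and 37.8, 36.1, 35.3 and 38.4 CPM with LITAF. Both groups were tight, and the change was log2 2.00 ± 0.09 (edgeR adjusted p = 2.74e-06). Its adaptor gene Fadd and its inhibitor gene Cflar were at log2 -0.16 and 0.02, neither of them called. In the BCL2 family 3 of 15 rose and none fell. The pore-forming Bax went from between 129 and 139.9 CPM to between 182 and 202 CPM (1.43-fold), the BH3-only gene Bcl2l11 (Bim) rose 1.75-fold, and the pro-survival gene Mcl1 rose 1.202-fold, a call lost without empty-vector libraries 2 and 3 or LITAF libraries 3 and 4 (edgeR adjusted p up to 0.0705), and with all 12 libraries in the fit (adjusted p up to 0.227). Bcl2l1, which codes for BCL-XL, was at log2 -0.06 and did not pass.

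Striated muscle genes rose from low levels. Of 32 tested sarcomere and striated muscle genes, 18 rose and none fell, and the median was 0.92. The summed level of the 54 members in the table was 1170.1, 1226, 1236 and 1019 CPM in empty-vector libraries 1 to 4 and 1186, 1628, 1512 and 1627 CPM in LITAF libraries 1 to 4, so that LITAF library 1 fell within the empty-vector range on this sum. The number of rises was 15, 15, 13 and 16 without empty-vector libraries 1 to 4 in turn, and 22, 17, 15 and 14 without LITAF libraries 1 to 4. Myh3, the embryonic myosin heavy chain, stood at 4.88, 6.91, 4.995 and 3.37 CPM against 12.1, 25.7, 22.8 and 28.9 CPM, with no overlap and the lowest LITAF value in library 1 (log2 2.15 ± 0.29, edgeR adjusted p = 0.00247). Myl11, a fast myosin light chain, went from 3.04, 4.18, 3.09 and 1.9998 to 9.04, 16.9, 15.3 and 21.1 CPM, again lowest in library 1. Actc1, the cardiac actin, was at 0.488 to 0.871 CPM with the empty vector and 2.203 to 7.39 CPM with LITAF, and Acta1, the skeletal actin, at 15.9 to 16.8 and 22.1 to 43.4 CPM. Each of these 2 actin genes had a CArG box in its promoter.

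Troponin genes rose with them. Tnnt2, cardiac troponin T, stood at 74.99, 77.7, 80.4 and 43.7 CPM against 135, 181, 186 and 189 CPM. Empty-vector library 4 and LITAF library 1 were the low ones of their groups, and the groups did not overlap (log2 1.32 ± 0.19, edgeR adjusted p = 0.00341). Tnni1, the slow-fibre troponin I, stayed under 3 CPM in every library and rose 7.55-fold (log2 2.92 ± 0.34). Tnnt3, the fast-fibre troponin T, rose 2.46-fold, and Mybph, a myosin-binding protein, 4.05-fold. Xirp1, an actin-binding Xin repeat protein of striated muscle, rose 1.94-fold. Of the atrogenes, ubiquitin ligases of muscle protein breakdown, Fbxo32 rose 1.96-fold and Trim63 1.66-fold. Of the 14 risen members with a promoter, 6 had the MYOD E-box CAGCTG (42.9%) and 2 a CArG box (14.3%), against 15.45% and 1.37% of all tested genes with a promoter.

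Of the regulators of myogenesis 3 of 20 rose and none fell, and the count was 1, 1, 1 and 3 without empty-vector libraries 1 to 4 in turn, and 6, 3, 1 and 1 without LITAF libraries 1 to 4. Myod1 was at 86.3, 77.1, 80.6 and 115 CPM against 112, 103, 91.5 and 100.4 CPM, overlapping (log2 0.18). Myog, the differentiation factor, was at 16.2, 19.9, 16.1 and 5.09 CPM against 18.4, 40.2, 34.4 and 37.4 CPM. Empty-vector library 4 was the low one, and the groups overlapped through LITAF library 1 (log2 1.19 ± 0.37, adjusted p 0.074 by edgeR). Without LITAF library 1 the call was made, at log2 1.38. Mymx, which codes for a peptide needed for myoblast fusion, was at 0 to 0.348 CPM with the empty vector and 1.04 to 1.58 CPM with LITAF (log2 2.58 ± 0.45). In the calcium handling list 3 of 22 rose and 1 fell (13.6% and 4.55%, against 6.93% and 2.88% of all genes). The acetylcholine receptor subunit genes Chrnd and Chrna1 reached 0.985 to 1.94 and 0.658 to 0.835 CPM from 0.0542 to 0.407 and 0.0542 to 0.271 CPM. The count of rises in this list was 2, 2, 2 and 2 without empty-vector libraries 1 to 4 in turn, and 8, 3, 2 and 2 without LITAF libraries 1 to 4.

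In the dystrophin and sarcoglycan complex, listed after the values were seen, 5 of 16 rose and none fell. Popdc2, a cAMP-binding membrane protein of heart and muscle, stood at 15.6, 13.9, 14.2 and 14.5 CPM against 27.1, 25.5, 23.7 and 23.5 CPM, tight in both groups (log2 0.78 ± 0.08, edgeR adjusted p = 4.58e-04). Of 25 smooth muscle contractile and SRF-related genes 2 rose, a share (8%) near the 6.93% of all genes (median 0.09). The count was 1, 1, 1 and 1 without empty-vector libraries 1 to 4 in turn, and 5, 2, 1 and 1 without LITAF libraries 1 to 4. One of the 2 was Srf itself, the factor that binds CArG boxes, at 93.5, 88.9, 83.9 and 88.3 CPM against 123, 178, 148 and 171 CPM, lowest with LITAF in library 1 (log2 0.81 ± 0.11, edgeR adjusted p = 0.00215). The abundant smooth muscle genes Acta2 and Tagln were at log2 0.09 and 0.07, and LITAF library 1 was below every empty-vector library for each.

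Matrix genes rose in part. Of 34 collagens and fibrous matrix genes, 11 rose and none fell (median 0.23), with a count of 7, 7, 6 and 9 without empty-vector libraries 1 to 4 in turn, and 17, 9, 7 and 6 without LITAF libraries 1 to 4. The 3 chains of collagen VI, which form a microfibril around muscle cells, moved together. Col6a1 stood at 1.79, 1.74, 1.52 and 1.54 CPM against 4.93, 5.96, 6.53 and 5.87 CPM (log2 1.82 ± 0.15, edgeR adjusted p = 5.97e-05). Col6a3 went from 0.488, 0.813, 0.326 and 0.457 to 2.61, 2.45, 2.58 and 2.6996 CPM (log2 2.30 ± 0.24). Col6a2 went from between 3.19 and 5.03 CPM to between 7.51 and 8.69 CPM (log2 1.13 ± 0.16), and its call was lost with all 12 libraries in the fit (adjusted p up to 0.0839). All 3 were low and free of overlap. Col3a1 rose 1.53-fold and Thbs1, a matricellular activator of TGF-beta, 1.36-fold. The abundant Col1a1, at 13764, 12929.5, 12123 and 12379.6 CPM against 14264, 18462, 15737 and 17312 CPM, rose 1.28-fold, and its call was lost without empty-vector libraries 1, 2, 3 and 4 or LITAF libraries 2, 3 and 4 (edgeR adjusted p up to 0.116), and with all 12 libraries in the fit, with the replicate block and with upper-quartile scaling (adjusted p up to 0.0733). Fibronectin, Fn1, was at log2 0.23 with an edgeR adjusted p of 0.0641 and did not pass.

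Small leucine-rich proteoglycans, which coat collagen fibrils, were listed together with Cilp, which is not of this family. In this list 3 of 6 tested members rose, Cilp among them. Fmod, fibromodulin, stood at 2.11, 3.02, 3.04 and 2.51 CPM against 15.5, 14.9, 13.2 and 13.3 CPM, a 5.32-fold rise with every LITAF value more than 4 times every empty-vector value (edgeR adjusted p = 5.70e-06). Cilp, a matrix protein that restrains TGF-beta and is known from the infarcted heart, rose 2.65-fold, from between 3.25 and 3.85 CPM to between 8.94 and 10.1 CPM. Of 7 laminins, listed after the values were seen, 4 rose and none fell. Lamc1, in most laminins, rose 1.303-fold within narrow bounds (831 to 885 against 1096 to 1145 CPM).

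Proteases and their inhibitors changed in both directions, 8 up and 2 down of 25, and the rises numbered 5, 5, 5 and 6 without empty-vector libraries 1 to 4 in turn, and 9, 9, 6 and 5 without LITAF libraries 1 to 4. Adamts1, a secreted protease that cleaves proteoglycans, stood at 198, 193, 183 and 200.4 CPM against 332, 337, 336 and 365 CPM (log2 0.82 ± 0.06, edgeR adjusted p = 3.72e-05). Serpinb7 fell 2.36-fold, from between 2.93 and 4.57 CPM to between 0.946 and 1.86 CPM. TGF-beta and BMP genes rose in 7 of 35 cases and fell in 1. Ski, a corepressor of SMADs, rose 1.36-fold. The number of rises was 1, 1, 1 and 5 without empty-vector libraries 1 to 4 in turn, and 9, 4, 1 and 2 without LITAF libraries 1 to 4, so this count depended on the libraries used.

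Of 32 semaphorins, plexins, neuropilins and ephrins 9 rose and none fell (median 0.17), though 5 fell without LITAF library 1, with a count of rises of 5, 6, 5 and 8 without empty-vector libraries 1 to 4 in turn, and 12, 10, 6 and 6 without LITAF libraries 1 to 4. Efnb1, a transmembrane ephrin, stood at 10.8, 11.3, 10.4 and 9.71 CPM against 24.4, 33.5, 26.7 and 32.5 CPM (log2 1.47 ± 0.12, edgeR adjusted p = 5.89e-05). Efnb2, its arterial relative, rose 1.57-fold. In the Wnt and Notch list 6 of 21 rose and none fell (median 0.21). Notch2, abundant in these cells, went from between 137 and 148 CPM to between 191 and 227 CPM (1.42-fold), and the Wnt receptor gene Fzd5 from between 7.49 and 9.88 CPM to between 13.03 and 16.1 CPM (1.74-fold). Over the fits with a library left out, 4 to 9 members of this list rose.

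Stress pathways differed in how many members moved. In the ATF4 and amino acid list 12 of 32 rose and 1 fell (median 0.21). The number of rises was 6, 6, 6 and 13 without empty-vector libraries 1 to 4 in turn, and 13, 10, 9 and 8 without LITAF libraries 1 to 4, 8 with the replicate number as a block and 5 with all 12 libraries in the fit. Nupr1, a stress-induced chromatin protein, stood at 93.4, 102, 107 and 89.4 CPM against 139, 154, 158 and 154 CPM (log2 0.63 ± 0.08, edgeR adjusted p = 0.00101). Asns, asparagine synthetase, rose 1.36-fold, Chac1, a glutathione-degrading enzyme, 1.34-fold and the serine synthesis gene Psat1 1.28-fold. Atf4 itself did not pass at the mRNA level (log2 -0.03, groups overlapping). Ddit3, the CHOP gene that ATF4 and the unfolded protein response share, was the fall, log2 -0.37 ± 0.09, a call lost without empty-vector libraries 2, 3 and 4 or LITAF libraries 3 and 4 (edgeR adjusted p up to 0.109), and with the replicate block (adjusted p up to 0.0633).

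Of 25 unfolded protein response genes 1 rose and 1 fell (4% each, against 6.93% and 2.88% of all genes, median -0.01). Hspa5, the main endoplasmic reticulum chaperone, was at log2 0.19 and did not pass. Falls in that list numbered 0, 0, 0 and 0 without empty-vector libraries 1 to 4 in turn, and 3, 1, 0 and 0 without LITAF libraries 1 to 4. Of 26 heat shock genes 2 rose, a share (7.69%) near the 6.93% of all genes, and none fell. The rises numbered 1, 1, 1 and 3 without empty-vector libraries 1 to 4 in turn, and 4, 2, 1 and 1 without LITAF libraries 1 to 4, and without LITAF library 1 the falls numbered 5. The rises were Dnajb5 and Dnajb1, an HSP40 cochaperone at 213, 211, 211 and 224 CPM against 393, 431, 388 and 413 CPM (log2 0.92 ± 0.06, edgeR adjusted p = 1.62e-05). Of the NRF2 antioxidant genes 3 of 26 rose (11.5%, against 6.93% of all genes). With a library left out 1 to 8 rose (8 without LITAF library 1, 1 without LITAF library 4). Srxn1, which repairs oxidised peroxiredoxins, was the large one, at 6.94, 6.45, 7.22 and 7.31 CPM against 28.8, 24.8, 21.99 and 20.7 CPM, highest in LITAF library 1 (3.44-fold). Nqo1, a standard NRF2 target, did not pass (log2 -0.05). Of 18 haem and iron genes 4 rose and 1 fell, and the rises numbered 3, 2, 2 and 3 without empty-vector libraries 1 to 4 in turn, and 5, 3, 2 and 3 without LITAF libraries 1 to 4. Hmox1, haem oxygenase, was at 1841, 1929, 1778 and 2079.8 CPM against 3219.8, 2769, 2353 and 2749 CPM (1.45-fold), and Ftl1, ferritin light chain, rose 1.35-fold. Tfrc, the transferrin receptor that imports iron, fell from 81.6, 80.9, 86.98 and 73.5 to 60.2, 24.2, 42.9 and 31.9 CPM. LITAF library 2 was lowest and library 1 nearest to the empty vector, and the call was lost without empty-vector libraries 1, 2 and 3 or LITAF libraries 3 and 4 (edgeR adjusted p up to 0.0819), and with no low-count filter (adjusted p up to 0.0584).

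Of 20 targets of the hypoxia-inducible factor 5 rose and none fell (median 0.17), with a count of 3, 3, 3 and 5 without empty-vector libraries 1 to 4 in turn, and 8, 5, 4 and 4 without LITAF libraries 1 to 4. Adm, the vasodilator adrenomedullin, stood at 29.1, 32.2, 29.2 and 32.6 CPM against 96.98, 76.7, 71.5 and 70.4 CPM, highest in LITAF library 1 (log2 1.36 ± 0.11, edgeR adjusted p = 5.93e-05). Bhlhe40, a repressor that is also in the clock list, rose 1.57-fold, and Stc1, stanniocalcin, 1.87-fold at under 4 CPM. In glycolysis 1 of 19 rose, the hexokinase gene Hk2 (1.44-fold), and 1 fell, Gbe1. Each is 5.26% of that list, against 6.93% and 2.88% of all genes. Of 10 adenosine and purine genes 2 rose and 1 fell. Adora1, the adenosine A1 receptor of the heart, went from 2.28, 1.74, 2.12 and 1.37 to 3.65, 5.23, 4.99 and 5.11 CPM (log2 1.33 ± 0.19). Circadian clock genes rose in 7 of 17 cases with none down (median 0.38), and the count was 4, 4, 4 and 7 without empty-vector libraries 1 to 4 in turn, and 9, 8, 5 and 4 without LITAF libraries 1 to 4. Nr1d1, which codes for the repressor REV-ERB alpha, stood at 27.4, 29.3, 28.9 and 29.3 CPM against 43.5, 49.7, 47.3 and 52.99 CPM (log2 0.75 ± 0.08, edgeR adjusted p = 3.99e-04), and Tef, a PAR-bZIP factor, rose 1.401-fold.

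A group that fell was the aryl hydrocarbon receptor battery, targets of a ligand-activated factor, listed after the values were seen. Of 11 tested members 5 fell and 1, the receptor gene Ahr, rose (median -0.27). Cyp1a1, the classical target, stood at 6.34, 8.48, 3.801 and 4.51 CPM with the empty vector and 0.638, 1.61, 1.37 and 0.822 CPM with LITAF. No values overlapped, and the fall was 5.14-fold (log2 -2.36 ± 0.33, edgeR adjusted p = 0.00278). Cyp1b1 went from 425, 438, 393 and 341 to 247, 228, 329.5 and 292 CPM, a call lost without empty-vector libraries 1, 2 and 3 or LITAF library 4 (edgeR adjusted p up to 0.0746). Ahrr, the repressor of the receptor, fell 1.23-fold, a call lost with all 12 libraries in the fit (adjusted p up to 0.103). Ahr itself was at 36.2, 33.5, 37.4 and 29.7 CPM against 63.8, 36.96, 57.03 and 50.9 CPM, overlapping through LITAF library 2, and its call was lost without empty-vector libraries 1, 2, 3 and 4 or LITAF libraries 3 and 4 (edgeR adjusted p up to 0.106), and with library totals alone (adjusted p up to 0.0508). With a library left out, the number of falls was 3, 2, 3 and 5 without empty-vector libraries 1 to 4 in turn, and 5, 5, 5 and 3 without LITAF libraries 1 to 4.

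Few genes of the endosomal machinery around LITAF were called. Of 9 tested members of the list of LITAF, its paralog Cdip1 and NEDD4-family partners, Litaf alone was called. Cdip1 was at log2 -0.08, the ubiquitin ligase genes Nedd4, Itch and Wwp1 at log2 -0.07, -0.39 and -0.46, and the ESCRT-I gene Tsg101 at log2 -0.15. Itch stood at 61.9, 58.02, 59.7 and 54.97 CPM against 62.5, 28.001, 49.3 and 38.9 CPM, lower than the empty vector in LITAF libraries 2 to 4 and not in library 1. Without LITAF library 1, Itch and Wwp1 were called lower, at log2 -0.60 and -0.69. Of 32 ESCRT and endosomal sorting genes 1 was called, Rab11fip1, an effector of recycling endosomes (1.48-fold, edgeR adjusted p = 0.00296). That is 3.12% of the list, against 6.93% of all genes that rose. Lysosome genes rose in 5 of 29 cases with none down, and 27 of the 29 were above 0 (median 0.15). The count of rises was 1, 1, 1 and 4 without empty-vector libraries 1 to 4 in turn, and 10, 5, 4 and 1 without LITAF libraries 1 to 4. Grn, progranulin, was the firmest, at 281, 288, 277 and 309 CPM against 367, 422, 354 and 400.4 CPM (log2 0.42 ± 0.07, edgeR adjusted p = 0.00634). Of 23 autophagy genes 4 rose, among them the initiating kinase gene Ulk1 (1.48-fold, from between 21.5 and 25.4 CPM to between 34.03 and 37.5 CPM), and the count was 2, 2, 2 and 3 without empty-vector libraries 1 to 4 in turn, and 6, 3, 2 and 2 without LITAF libraries 1 to 4.

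Genes of proliferation and ribosome production were lower in small steps. None of 36 DNA replication genes was above 0, 6 fell and the median was -0.19. The number of falls was 1, 1, 1 and 6 without empty-vector libraries 1 to 4 in turn, and 9, 9, 1 and 1 without LITAF libraries 1 to 4. Gins3, of the replicative helicase complex, was the firmest, at 27.9, 26.9, 26.1 and 24.1 CPM against 15.998, 17.2, 19.2 and 16.7 CPM (log2 -0.60 ± 0.09, edgeR adjusted p = 0.00278). Of 52 mitosis genes 8 fell, 51 were below 0 and the median was -0.25, and the summed level was 3967, 3839, 3879.6 and 3609.6 CPM in empty-vector libraries 1 to 4 and 3478, 2781, 3471 and 3062 CPM in LITAF libraries 1 to 4. The number of falls was 0, 0, 0 and 2 without empty-vector libraries 1 to 4 in turn, and 18, 10, 3 and 0 without LITAF libraries 1 to 4. Mad2l1, of the spindle checkpoint, had log2 -0.39 ± 0.09, a call lost without empty-vector libraries 1, 2 and 3 or LITAF library 4 (edgeR adjusted p up to 0.0829), and with all 12 libraries in the fit (adjusted p up to 0.126). Fewer dividing cells and less RNA of these genes in each cell cannot be told apart in bulk libraries.

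Ribosome biogenesis genes, listed after the values were seen, fell in 15 of 50 cases with 44 below 0 (median -0.19), and the count was 4, 4, 5 and 6 without empty-vector libraries 1 to 4 in turn, and 24, 13, 3 and 3 without LITAF libraries 1 to 4. Their sum was 6086, 6145, 6313 and 6185 CPM in empty-vector libraries 1 to 4 and 5864, 4608, 5298 and 5036 CPM in LITAF libraries 1 to 4. Lyar, a nucleolar protein, went from between 45.9 and 54.9 CPM to between 31.3 and 39.2 CPM (log2 -0.46 ± 0.09). All 8 subunits of the chaperonin CCT, which folds actin and tubulin, were below 0, and 3 were called, or 1, 1, 1 and 3 without empty-vector libraries 1 to 4 in turn, and 4, 4, 1 and 1 without LITAF libraries 1 to 4. Cct6a stood at 623, 625, 609 and 614 CPM against 517, 473, 509 and 484 CPM (log2 -0.32 ± 0.06), a call lost with all 12 libraries in the fit (adjusted p up to 0.0588). Cytosolic ribosomal protein genes had the opposite sign, with all 40 above 0 (median 0.18) and none called. Without LITAF library 1, 32 of them were called, and in the 7 other fits with a library left out none was. Of 44 respiratory chain genes 1 fell, Cycs, a share (2.27%) near the 2.88% of all genes that fell, and the median was 0.01. Of 69 mitochondrial ribosomal protein genes, taken by symbol after the values were seen, 6 fell (8.7%) and none rose (median -0.07). The falls numbered 0, 0, 0 and 3 without empty-vector libraries 1 to 4 in turn, and 7, 8, 1 and 0 without LITAF libraries 1 to 4.

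Zinc finger genes, taken by symbol (Zfp, Znf, Zscan, Zkscan) after the values were seen, fell in 40 of 295 tested cases (13.6%). Another 6 rose, the median was -0.31, and the number of falls was 17, 14, 15 and 25 without empty-vector libraries 1 to 4 in turn, and 108, 39, 22 and 14 without LITAF libraries 1 to 4. Their sum was 6093, 5877, 6032 and 6004 CPM in empty-vector libraries 1 to 4 and 6420.02, 4959, 5919.7 and 5317 CPM in LITAF libraries 1 to 4, so LITAF library 1 was above every empty-vector library and libraries 2 and 4 below. Many have close paralogs whose reads counting may split, among them Zfp239l1, at 7.65, 7.78, 6.57 and 6.34 CPM against 3.71, 1.84, 3.13 and 1.995 CPM (log2 -1.41 ± 0.21).

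Among single genes that fell, Negr1, an immunoglobulin-type adhesion molecule best known from neurons, had the largest change at 9.49, 10.6, 9.94 and 9.31 CPM against 2.09, 0.891, 2.36 and 2.23 CPM. Groups were far apart, and LITAF library 2 was lowest (log2 -2.37 ± 0.22, edgeR adjusted p = 1.64e-04). Cd200, a glycoprotein that restrains myeloid cells, went from 45.2, 47.4, 46.96 and 56.8 to 25.8, 19.2, 22.5 and 21.7 CPM (log2 -1.14 ± 0.11, edgeR adjusted p = 1.93e-04). These were the 2 falls among 15 tested immunoglobulin-type adhesion genes. Prrx2, a homeobox factor of mesenchyme, went from 5.42, 7.38, 7.28 and 10.5 to 3.77, 2.78, 2.03 and 2.52 CPM, and Foxc2, a forkhead factor of mesoderm, from 17.2, 15.7, 12.1 and 16.97 to 6.26, 7.905, 7.79 and 8.22 CPM. They were the 2 falls among 28 homeobox and forkhead factors (7.14%, against 2.88% of all genes). Foxo1 was the rise (3.57%, against 6.93%). Nrn1, neuritin, fell 1.96-fold, from between 10.7 and 12.7 CPM to between 5.18 and 7.22 CPM (edgeR adjusted p = 0.00197).

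Several other clear rises lay outside the lists or the naming rule and were picked after their values were seen. C1s, a serine protease of the classical complement pathway, stood at 49.5, 50.4, 47.7 and 59.1 CPM against 111, 98.03, 99.3 and 105 CPM (log2 1.00 ± 0.08, edgeR adjusted p = 7.14e-05), and Clu, the complement inhibitor and chaperone clusterin, rose 1.802-fold. They were the 2 rises among 8 tested complement genes, of which Cd46 fell. Depp1, a FOXO target, rose 3.03-fold, from between 8.57 and 11.2 CPM to between 24.4 and 34.5 CPM. Aqp1, a water channel, rose 2.19-fold and Ass1, which makes argininosuccinate for arginine synthesis, 2.64-fold. Klhl21, an adaptor of a cullin ubiquitin ligase, went from 69.4, 65.2, 60.2 and 73.3 to 149.96, 153, 129 and 145 CPM (log2 1.11 ± 0.08, edgeR adjusted p = 4.16e-05). None of these genes overlapped between the groups.

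**Figure D5:**
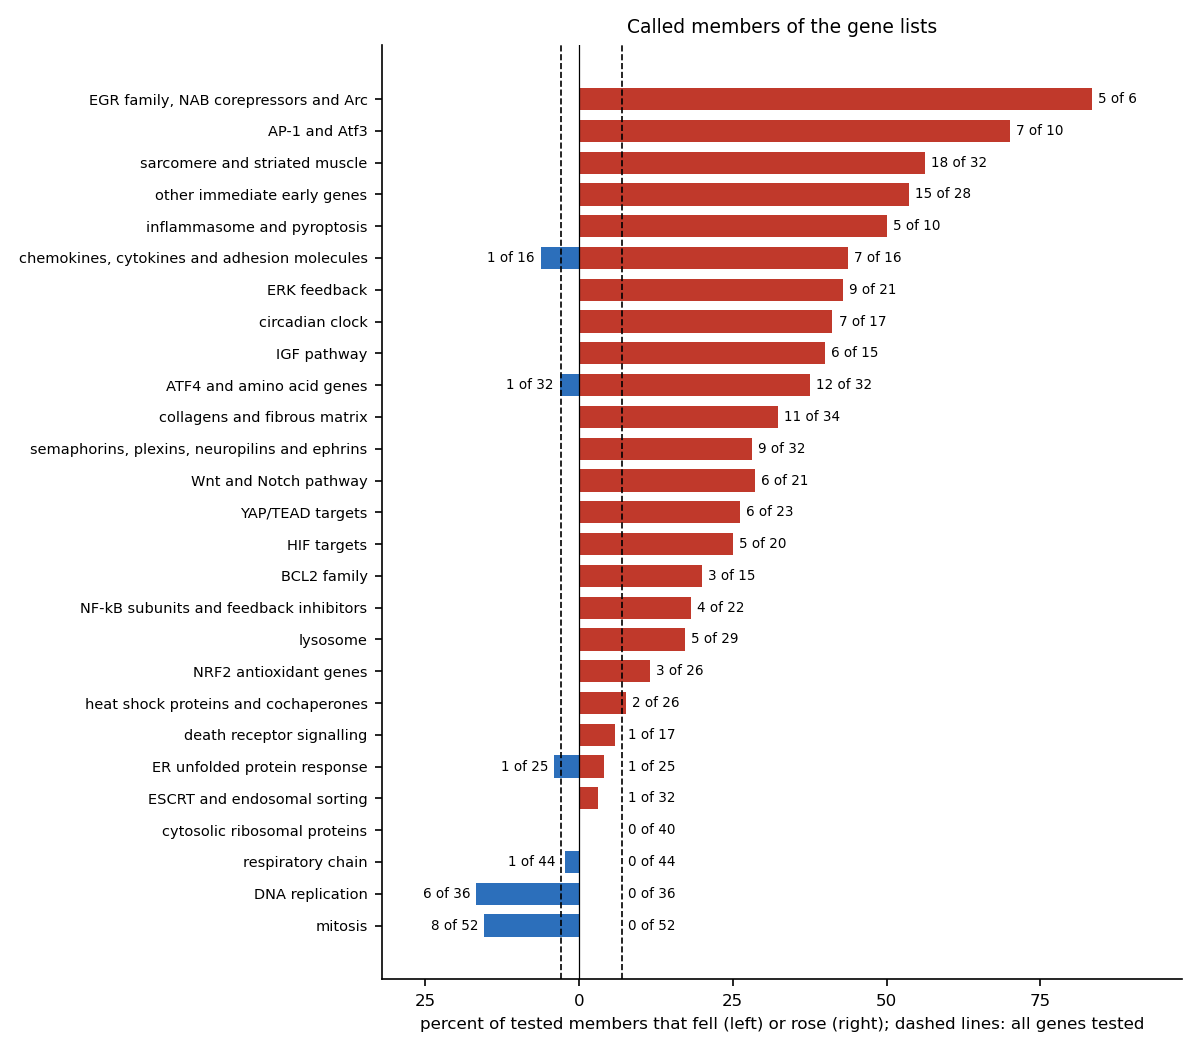
Percent of the tested members of 27 gene lists that rose (right) or fell (left) with LITAF, with the number called beside each bar. The dashed lines mark the share of all genes tested that rose (6.93%) or fell (2.88%). Immediate early, AP-1 and striated muscle lists lie far to the right of the line, DNA replication and mitosis lie to the left, and death receptor, unfolded protein response and ESCRT genes lie at or under it.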

How the data were processed

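Polyadenylated RNA of H9C2 cells was sequenced as paired-end reads. The authors made and deposited 1 table of estimated counts for 16204 protein-coding rows and 12 libraries, not scaled for depth, per the file headers and values. For the aligner, counter, build and strand setting no statement was found in labels or headers (not given in the sources used here). Reads of overlapping genes or close paralogs may be split between them. Between 11.2% and 12.4% of the values in the 8 H/R libraries were not whole, and counts were rounded. The 258 rows that share an ID with another row held equal values in these libraries, and 1 row per ID was kept (16074).

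Of these, 11292 genes passed edgeR's filterByExpr. They were fitted with edgeR 4.0.16 (R 4.3.3; TMM, robust quasi-likelihood F-test) on the 8 libraries, with the empty vector as reference and Benjamini-Hochberg adjustment over all genes tested. A gene was called at an adjusted p under 0.05. Fold changes carry a standard error (SE), derived as the absolute log2 fold change over the square root of the F statistic. CPM values are TMM-scaled and are compared within a gene only. The common biological coefficient of variation was 12.4%. The script was tested on simulated counts. Alternatives were DESeq2 1.42.0, other scalings, no filter, no robust estimation, a replicate block, all 12 libraries, stricter thresholds and each library left out. Another left out the 72 IDs whose rows differ in the libraries under normal oxygen. The fit of all 12 libraries left these IDs out too.

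Members and gene lists were chosen with earlier results of these data known, and the lists for the aryl hydrocarbon receptor, pattern recognition, complement, laminins, CCT, ribosome biogenesis, the dystrophin complex and the symbol groups after values were seen. The naming rule took Litaf, the 20 largest rises and 20 largest falls among called genes without overlap at a mean log2 CPM of at least 1, the 10 called genes with the highest CPM, and per list up to 6 called members with the smallest p and up to 4 others with the highest CPM. Named outside this rule, after their values were seen, were further list members (among them Jun, Plk3, Nr4a3, Ptgs2, Dusp4, Spred1, Il6, Vcam1, Fadd, Cflar, Bcl2l1, Actc1, Acta1, Fbxo32, Trim63, Tagln, Ddit3, Nqo1, Cdip1 and Wwp1), members of the lists chosen after values were seen, and 7 genes called out in the text. Promoters were matched by symbol for 11240 genes, of which 9321 had one. A few genes that the rule would name are not reported here.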

Additional observations from a re-analysis of the deposited data

Results flagged for a closer look

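In the following cases 1 library lay far from the other 3 of its group by Dixon's test at the 95% level. Chance flags about 1 in 20 groups, and 12 of 318 groups checked were flagged, fewer than that share, so the cases are listed as values.

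LITAF library 1 was the one apart for the muscle genes Tnni1 and Tnnt2. Tnni1 was at 1.39 CPM against 2.56 to 2.76 CPM in the other 3, and Tnnt2 at 135 CPM against 181 to 189 CPM. The same library was low for Adora1, at 3.65 CPM against 4.99 to 5.23 CPM, and slightly high for Ski, at 86.6 CPM against 83.7 to 84.2 CPM. Adamts1 was high in LITAF library 4, at 364.7 CPM against 332 to 337 CPM.

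Empty-vector library 4 was apart for Tnnt2 (43.7 CPM against 74.99 to 80.4 CPM), Bhlhe40 (137 CPM against 174 to 178 CPM), Icam1 (117.7 CPM against 87.0 to 90.8 CPM) and Ski (71.1 CPM against 59.2 to 59.6 CPM). Empty-vector library 1 was apart for Fos (48.4 CPM against 40.6 to 41.4 CPM) and Xirp1 (15.3 CPM against 16.6 to 16.9 CPM). Arc was low in empty-vector library 2, at 7.43 CPM against 8.14 to 8.24 CPM.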

How the results depend on the processing

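The count of calls moved with the settings. At an adjusted p of 0.01 by edgeR, 338 genes were called (302 rose, 36 fell), and 147 were called at 2-fold or more (119 rose, 28 fell). With all 12 libraries in the fit 556 were called (425 rose, 131 fell), of which 541 were among the 1108. Falls numbered 603 with DESeq2 (1604 called) and 572 with library totals alone. Leaving out 1 library at a time gave 439 to 2557 calls, 368 to 1417 rises and 68 to 1140 falls, the highest of each without LITAF library 1, and the cause was not tested. With the replicate block 894 genes were called (621 rose, 273 fell). Same-numbered libraries correlated at 0.076, 0.124, 0.210 and 0.065 in their deviations from the group means. Libraries of different numbers correlated at -0.2985 to 0.2505. The labels do not say that a number marks a shared batch, so the numbers were not taken to pair the libraries.

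Of 130 called genes named in the text with values, 115 kept their call in each of the 17 alternative fits that tested them, and none reversed. These genes were picked in large part by small p or large change. Of all 1108 calls, 462, 436, 441 and 767 stayed called without empty-vector libraries 1 to 4 in turn. Without LITAF libraries 1 to 4 the numbers were 1108, 957, 562 and 442. The log2 change of Litaf stayed between 1.93 and 2.06. Changes in genes of few reads are imprecise at 16.98 to 18.5 M reads a library, and 4782 genes were too low to test.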
